A study of Mus musculus with 8 samples.

Results

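The genes described here are 36 endothelial and angiogenesis genes, chosen by symbol from the 54532 genes of a read count table made from interscapular brown fat. They comprise 17 pan-endothelial genes, 7 endothelial transcription factors, 6 genes of capillary endothelium, 2 lymphatic genes, 2 endothelial activation genes (Vcam1 and Icam2) and 2 VEGF ligands. RNA was sequenced from 8 male mice aged 7 months on normal chow, all kept at 4 °C for 24 h in metabolic cages. The 4 control mice were Pparg-flox, carrying a Pparg allele that Cre can inactivate, and the 4 mice labelled knockout were Pparg-flox, Myl1-Cre, with the same allele and a Cre recombinase driven by Myl1, a myosin light chain gene. Both groups therefore carried the floxed allele and both were cold-exposed. No mice with Cre alone and none kept warm were among the samples analysed here. The series asks whether Myl1-positive progenitor cells that form fat cells matter for brown fat. The libraries are of whole tissue, in which fewer cells of a type and less RNA per cell cannot be told apart.

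Brown fat is densely supplied with capillaries, which bring fatty acids, glucose and oxygen to the fat cells and carry heat away. Fat cells secrete VEGF-A, which acts through the receptor KDR on endothelial cells to keep and extend this network, and cold exposure is known to raise VEGF-A in brown fat. Angiopoietins act through the receptor TEK on the stability of vessels. VCAM-1 is a surface protein that activated endothelium uses to hold leukocytes, and it is also made by some macrophages, fibroblasts and progenitor cells.

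The libraries held 12226608 to 19268945 counts, and levels are given as CPM, which sets each count against the library's total as scaled by the TMM method. A count of 0 in 1 library allows a level of up to 0.156 to 0.245 CPM, which covers counting error only. Log2 fold changes are labelled knockout over control with their standard error (SE), and means are ± SD over 4 mice a group. The targeted gene Pparg was higher in the mice labelled knockout, at 284 ± 24.9 against 197 ± 7.36 CPM (log2 fold change 0.52 ± 0.09, adjusted p = 0.0328, edgeR's quasi-likelihood test with Benjamini-Hochberg adjustment, used throughout), which goes against that label. The difference stayed between 0.46 and 0.59 on the log2 scale in all 18 alternatives. It passed in 9 of them, with an adjusted p of 1.1e-05 in DESeq2 and 0.0275 in limma-voom, and did not pass with any 1 of the 8 libraries left out (0.0505 to 0.119) or with the muscle score described next (0.0899). A gene-level count also takes in exons outside the floxed part. All directions below are drawn from the labels as given. Ucp1, the heat-producing uncoupling protein that defines brown fat cells, was at 9303 ± 1473 against 11441 ± 1272 CPM. Summed skeletal muscle markers stood at 10165 to 19409 against 5271 to 13867 CPM in the mice labelled knockout and the control, and all 16 of them had a log2 fold change above 0. Of the 16, 13 had an unadjusted edgeR p below 0.05, beside 15.2% of all genes tested, and 0 passed an adjusted p of 0.05. The troponin genes Tnni2, at 907 ± 254 against 492 ± 124 CPM, and Tnnt3, at 1529 ± 426 against 881 ± 275 CPM, passed in DESeq2, and Tnni2 also in edgeR where low counts were not filtered. Myl1, the gene that drives Cre, is not on that list and was at 367 ± 105 against 378 ± 68.8 CPM (log2 fold change -0.05 ± 0.20, adjusted p = 0.94). The mean log2 CPM of the 16 markers, the muscle score, was entered as a covariate in 1 alternative fit.

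All 36 genes passed the filter on low counts and were tested together with the other genes (13756 in all). Vcam1 rose in the mice labelled knockout, to 2.21 times its control level, and none of the other 35 passed an adjusted p of 0.05 in either direction. Over all genes tested 0.385% passed, 0.291% as higher and 0.0945% as lower. The median log2 fold change of the 36 genes was 0.05, beside 0.00 over all genes tested. For 34 of the 36 the 95% interval of the log2 fold change held 0, the exceptions being Vcam1 and Nos3. For 31 of the 36 the interval lay within a 1.5-fold change either way, and it reached beyond that in Vcam1, Clec14a, Tal1, Lyl1 and Prox1. The sign of 25 of the 36 differed under at least 1 alternative.

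**Figure D1:**
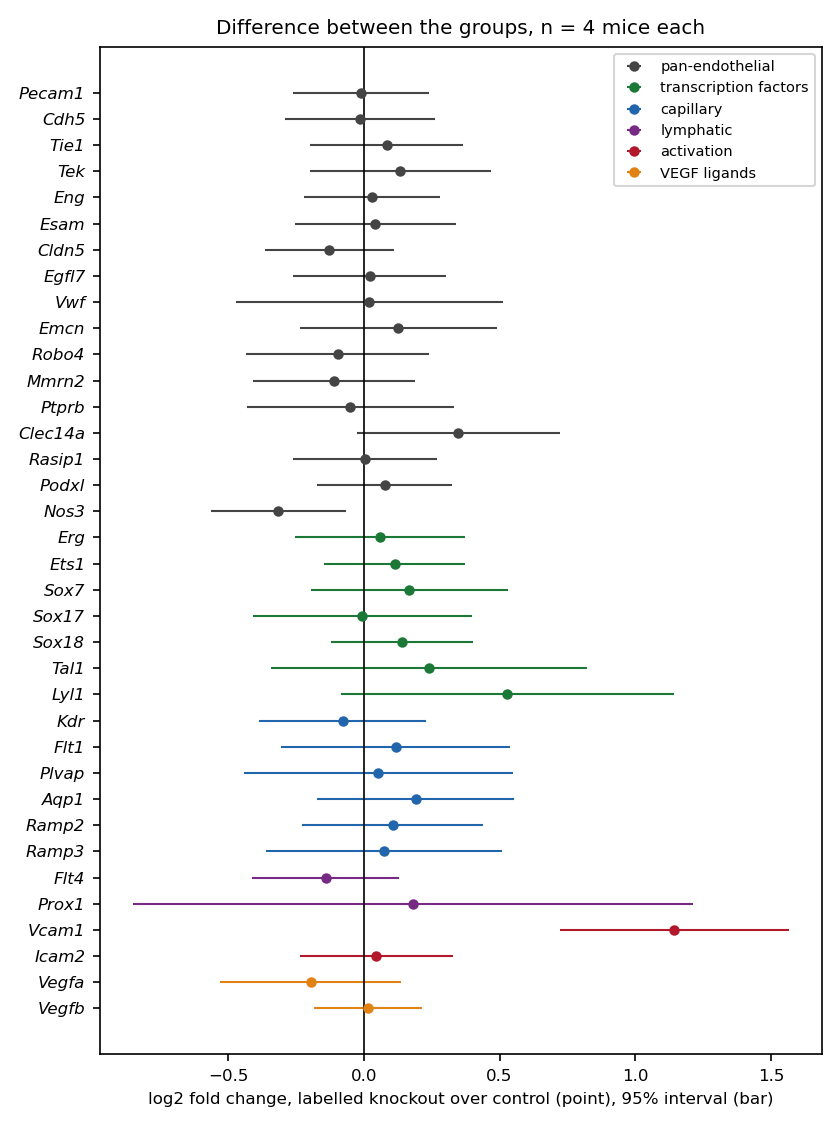
Log2 fold change of each of the 36 genes (x axis, labelled knockout over control, n = 4 mice each) with its 95% interval as a bar, coloured by gene group. Vcam1 lies apart at 1.14, the interval of Nos3 lies below 0, and the other 34 intervals hold 0.

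The pan-endothelial genes mark the cells that line all vessels. Pecam1, an adhesion protein of endothelial junctions (ENSMUSG00000020717, chromosome 11, 106654217 to 106750628, minus strand, GRCm38), stood at 139, 169, 206 and 159 CPM in control mice 1 to 4 and at 166, 167, 173 and 161 CPM in labelled knockout mice 1 to 4. The control mice spanned both the lowest and the highest of the 8 values, and the 4 mice labelled knockout lay between them. Its log2 fold change was -0.01 ± 0.11, with a 95% interval of -0.26 to 0.24 and an adjusted p of 0.974. Cdh5, the VE-cadherin that joins endothelial cells (ENSMUSG00000031871, chromosome 8, 104101625 to 104144511, plus strand), stood at 163, 194, 254 and 184 CPM in control mice 1 to 4 and at 205, 193, 194 and 195 CPM in labelled knockout mice 1 to 4. Again control 1 was lowest, control 3 was highest, and the mice labelled knockout lay within a narrow band. The log2 fold change of Cdh5 was -0.01 ± 0.13 (95% interval -0.29 to 0.26, adjusted p = 0.973).

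The remaining pan-endothelial genes act in vessel signalling, junctions, guidance and clotting. The angiopoietin receptor Tek stood at 32.3, 46.4, 58.9 and 44.1 CPM in control mice 1 to 4 and at 54.8, 50.5, 48.4 and 45.8 CPM in labelled knockout mice 1 to 4, with all 4 mice labelled knockout above the control mean but below control 3. Its orphan partner Tie1 was at 74.6 ± 6.75 against 70.4 ± 13.1 CPM, in the order labelled knockout and control that is used for all such pairs of means. The junction protein Esam was at 63.8 ± 4.15 against 61.98 ± 13.3 CPM and the TGF-beta co-receptor Eng at 216 ± 22.02 against 212 ± 28.8 CPM. For these 4 genes adjusted p ran from 0.71 for Tek to 0.934 for Eng, and the groups overlapped in each. The phosphatase Ptprb, which restrains TEK, was at 142 ± 27.5 against 147 ± 33.2 CPM, the sialomucin Podxl at 138 ± 18.6 against 131 ± 13.6 CPM and the sialomucin Emcn, typical of capillaries and veins, at 54.2 ± 9.63 against 49.7 ± 10.9 CPM. The clotting factor carrier Vwf was at 35.2 ± 10.9 against 34.6 ± 7.80 CPM and had the widest interval of the pan-endothelial genes, -0.47 to 0.51. The secreted protein Egfl7 was at 80.5 ± 14.96 against 79.3 ± 8.42 CPM, the guidance receptor Robo4 at 27.7 ± 2.71 against 29.6 ± 6.82 CPM and the small GTPase effector Rasip1 at 32.2 ± 4.57 against 32.03 ± 3.99 CPM. None of these 11 passed, and the groups overlapped in each.

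The lectin-like receptor Clec14a and its matrix ligand Mmrn2 bind each other on the endothelial surface. Clec14a stood at 21.3 ± 3.17 against 16.8 ± 4.04 CPM, a difference of 0.35 ± 0.17 on the log2 scale, the highest of the pan-endothelial genes (adjusted p = 0.359). Mmrn2 was at 33.5 ± 4.21 against 36.1 ± 6.59 CPM, with -0.11 ± 0.14. Neither passed, and their groups overlapped. Cldn5, the main claudin of endothelial tight junctions, was at 20.7 ± 2.46 against 22.6 ± 1.56 CPM and was the pan-endothelial gene with the least spread among the control mice in relation to its level, lacking the high value of control 3.

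Nos3, the endothelial nitric oxide synthase that dilates vessels (ENSMUSG00000028978, chromosome 5, 24364810 to 24384474, plus strand), stood at 36.5, 41.8, 40.3 and 32.2 CPM in control mice 1 to 4 and at 32.3, 33.3, 25.5 and 30.2 CPM in labelled knockout mice 1 to 4. All 4 mice labelled knockout lay below the control mean, and the groups overlapped, since control 4 was lower than the 2 highest mice labelled knockout. Its log2 fold change was -0.32 ± 0.11, the lowest of the 36, with a 95% interval of -0.56 to -0.07. The unadjusted edgeR p was 0.0173, but it did not pass over all genes (adjusted p = 0.235), and 15.2% of all genes tested had an unadjusted p below 0.05, 7.12% of all as lower. Taken per count of Cdh5 in the same library, Nos3 was at 0.154 ± 0.0171 against 0.193 ± 0.0315, a ratio picked after its values were seen. Exons of Nos3 overlap those of Atg9b on the opposite strand, which had 27 to 135 counts a library, and whether reads were counted by strand was not given in the sources used here, which leaves the value of Nos3 uncertain. The same holds for Eng, Egfl7, Rasip1, Sox17, Lyl1, Ramp3 and Prox1. With Nos3 and Vcam1 they are the 9 of 36 genes whose exons overlap those of an opposite-strand gene. The partner of Vcam1 had no counts, which does not remove the uncertainty for Vcam1 while the strand setting is unknown. Egfl7, Rasip1 and Ramp2 overlap exons of another gene on their own strand, and their counts are uncertain for that reason. Nos3 kept its sign in all 18 alternatives, between -0.38 and -0.24, and passed in none.

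Promoter sequence is shown for the receptors TEK and FLT1, through which angiopoietins and VEGFs act, and for Lyl1, the gene among those eligible that held the motif searched. ETS proteins such as ERG and ETS1 drive many endothelial promoters and bind sites built on GGAA. The strings CCGGAAG and CAGGAAG were searched on both strands in the 250 bases before each RefSeq start (GRCm38.p6). RefSeq entries were matched for 20 of the 36 genes, with 27 starts, and 8 of the 27 (29.6%) held a match, beside 5585 of all 32851 promoters of that length. RefSeq and GENCODE place some starts differently, so that several of these windows hold exon bases by GENCODE. Of the 15 genes with 1 RefSeq start, 7 had a window free of annotated exons, and 1 of these 7 held a match. A match is not a measured binding site. The sequences run 5′ to 3′ on the gene's strand up to the base before the start, with the match in capitals. Tek lies at chr4:94739039-94739288 on the plus strand, Flt1 at chr5:147726012-147726261 on the minus strand and Lyl1 at chr8:84701207-84701456 on the plus strand.
Tek: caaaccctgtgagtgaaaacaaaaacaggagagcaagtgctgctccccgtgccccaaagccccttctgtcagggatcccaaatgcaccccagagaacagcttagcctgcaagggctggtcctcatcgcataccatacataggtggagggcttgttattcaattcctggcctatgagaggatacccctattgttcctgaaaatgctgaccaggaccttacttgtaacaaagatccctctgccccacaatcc
Flt1: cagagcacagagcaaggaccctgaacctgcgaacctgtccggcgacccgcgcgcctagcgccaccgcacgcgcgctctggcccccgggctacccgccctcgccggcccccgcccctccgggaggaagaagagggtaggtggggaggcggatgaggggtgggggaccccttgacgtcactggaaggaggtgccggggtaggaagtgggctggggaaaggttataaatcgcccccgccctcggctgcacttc
Lyl1: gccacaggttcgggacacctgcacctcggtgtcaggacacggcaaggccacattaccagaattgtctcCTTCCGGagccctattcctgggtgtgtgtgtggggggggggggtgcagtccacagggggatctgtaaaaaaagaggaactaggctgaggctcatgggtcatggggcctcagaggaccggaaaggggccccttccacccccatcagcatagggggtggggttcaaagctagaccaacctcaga
Other sites built on GGAA were not searched, so a window without a match may still hold ETS sites. Tek and Flt1 hold no match in this window. Lyl1 holds 1, read on the opposite strand and ending 175 bases before the start. In the comparison of mice the log2 fold changes were 0.13 ± 0.15 for Tek, 0.12 ± 0.19 for Flt1 and 0.53 ± 0.28 for Lyl1. None of them passed (edgeR adjusted p = 0.71, 0.813 and 0.392). Lyl1 is shown because it held a match, so these values do not relate the motif to a change.

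The 7 endothelial transcription factors did not pass either. Erg, an ETS factor that maintains endothelial identity, was at 16.6 ± 1.07 against 15.97 ± 3.44 CPM, and Ets1, a second ETS factor also present in lymphocytes, at 71.9 ± 3.58 against 66.5 ± 11.6 CPM. The SOXF factors, which act in arterial and lymphatic specification, were at 17.8 ± 1.26 against 15.8 ± 4.05 CPM for Sox7, 18.8 ± 1.53 against 18.95 ± 5.97 CPM for Sox17 and 49.00 ± 5.11 against 44.5 ± 6.58 CPM for Sox18. Their adjusted p lay between 0.613 for Sox18 and 0.994 for Sox17. Tal1 and Lyl1 are related factors shared by endothelium and blood cells and had the lowest levels of the 7 per kilobase of annotated exon. Tal1 was at 5.12 ± 1.48 against 4.34 ± 1.34 CPM and Lyl1 at 2.73 ± 0.710 against 1.87 ± 0.476 CPM. Lyl1 had the highest log2 fold change of the factors, 0.53 ± 0.28, with a 95% interval of -0.08 to 1.14 and an adjusted p of 0.392, and its exons overlap those of Nfix on the opposite strand. Macrophage markers, which are named with their values beside Vcam1, also had log2 fold changes above 0, and their part in the value of Lyl1 was not tested.

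The capillary genes include a pair of VEGF receptors. Kdr, the main signalling receptor for VEGF-A (ENSMUSG00000062960, chromosome 5, 75932827 to 75978458, minus strand), stood at 257, 312, 420.0 and 284 CPM in control mice 1 to 4 and at 301, 312, 313 and 279 CPM in labelled knockout mice 1 to 4. The mice labelled knockout lay close together, and control 3 exceeded all other mice. Its log2 fold change was -0.08 ± 0.14 (95% interval -0.39 to 0.23, adjusted p = 0.83). Flt1, the receptor that binds VEGF-A and VEGF-B and limits signalling through KDR (ENSMUSG00000029648, chromosome 5, 147561604 to 147726011, minus strand), stood at 101, 159.8, 217 and 137 CPM in control mice 1 to 4 and at 179, 181, 167 and 140.2 CPM in labelled knockout mice 1 to 4. Control 1 held the lowest value and control 3 the highest, and the log2 fold change was 0.12 ± 0.19 with an interval of -0.31 to 0.54 (adjusted p = 0.813). Per kilobase of annotated exon, averaged over the 8 libraries, Kdr was at 34.3 CPM and Flt1 at 11.9 CPM.

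The other 4 capillary genes did not pass either. Plvap, which forms the diaphragms of fenestrated capillaries, was at 21.1 ± 6.13 against 20.1 ± 5.18 CPM, and the water channel Aqp1 at 129 ± 19.1 against 113 ± 26.7 CPM. Ramp2 and Ramp3, the partners that give the receptor Calcrl its response to adrenomedullin, were at 23.9 ± 4.60 against 22.2 ± 3.45 CPM and 3.63 ± 0.696 against 3.45 ± 0.298 CPM. Their log2 fold changes were 0.05 ± 0.23 for Plvap, 0.19 ± 0.17 for Aqp1, 0.11 ± 0.15 for Ramp2 and 0.07 ± 0.20 for Ramp3, with adjusted p of at least 0.617. Ramp3 was low, at 2.56 CPM per kilobase.

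Both lymphatic genes were among the 5 lowest of the 36 per kilobase. Flt4, the VEGF-C receptor of lymphatic endothelium (ENSMUSG00000020357, chromosome 11, 49609263 to 49652739, plus strand), stood at 12.8, 17.5, 17.9 and 15.02 CPM in control mice 1 to 4 and at 14.1, 13.5, 15.3 and 14.4 CPM in labelled knockout mice 1 to 4. All 4 mice labelled knockout lay below the control mean but above control 1, so the groups overlapped. The log2 fold change of Flt4 was -0.14 ± 0.12 (95% interval -0.41 to 0.13, adjusted p = 0.623). Prox1, the transcription factor that sets lymphatic identity (ENSMUSG00000010175, chromosome 1, 190118035 to 190170714, minus strand), stood at 0.749, 3.66, 1.59 and 1.84 CPM in control mice 1 to 4 and at 1.19, 3.68, 2.80 and 1.44 CPM in labelled knockout mice 1 to 4. Control 2 and labelled knockout 2 were the highest, control 1 was the lowest, and the interval of the log2 fold change was the widest of the 36, -0.85 to 1.21 around 0.18. At 0.252 CPM per kilobase Prox1 had the lowest level of all 36, and its exons overlap those of the opposite-strand gene Prox1os. With group means removed, Prox1 had the highest correlation of the 36 with the muscle score (Pearson r = 0.72). Adjusted for the muscle score its log2 fold change was -0.63 (adjusted p = 0.75). Of 5 further lymphatic genes 3 were tested and 0 passed (edgeR, 0 at an unadjusted p below 0.05, 0 in DESeq2 and limma-voom). The smallest p belonged to Pdpn with 0.76 ± 0.49 and Reln with 0.43 ± 0.51, at 1.06 ± 0.559 against 0.600 ± 0.304 CPM and 0.912 ± 0.532 against 0.687 ± 0.390 CPM.

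Vcam1 (ENSMUSG00000027962, chromosome 3, 116109949 to 116129688, minus strand), the leukocyte adhesion receptor, was the gene that rose. It stood at 8.53, 7.97, 6.61 and 4.50 CPM in control mice 1 to 4 and at 18.6, 15.99, 13.9 and 13.1 CPM in labelled knockout mice 1 to 4. Every mouse labelled knockout lay above every control mouse, with no overlap, which was so for 1 of the 36 genes, while 8.1% of all genes tested did not overlap and 4.1% lay higher without overlap. The means were 15.4 ± 2.48 against 6.91 ± 1.79 CPM. The log2 fold change was 1.14 ± 0.19 (95% interval 0.72 to 1.57, adjusted p = 0.0303). These values rest on 54 to 239 counts a library, and at 1.26 CPM per kilobase Vcam1 was among the 3 lowest of the 36. Its exons overlap those of Gm43109 on the opposite strand, which had 0 counts in all 8 libraries.

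The rise kept its direction and size in all 18 alternatives, with log2 fold changes between 0.99 and 1.25, while the call was less firm. It passed with DESeq2 (adjusted p = 9e-06) and limma-voom (0.0387). Of the 8 edgeR fits that left out 1 library it passed in 3, without control 1, control 4 or labelled knockout 4. It did not pass without control 2 (adjusted p = 0.059), control 3 (0.0586), labelled knockout 1 (0.116), labelled knockout 2 (0.0692) or labelled knockout 3 (0.08). Adjusted for the muscle score the log2 fold change was 1.12 and the adjusted p 0.267. With the mean of 16 pan-endothelial genes as a covariate, an alternative added after seeing the data, it was 1.12 with an adjusted p of 0.0416.

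The second activation gene did not pass. Icam2, an adhesion protein that resting endothelium carries at all times (ENSMUSG00000001029, chromosome 11, 106377656 to 106388075, minus strand), stood at 17.7, 19.9, 21.2 and 14.5 CPM in control mice 1 to 4 and at 21.1, 17.8, 17.4 and 19.5 CPM in labelled knockout mice 1 to 4. The groups overlapped throughout, and the log2 fold change was 0.04 ± 0.13 (95% interval -0.24 to 0.33, adjusted p = 0.903). The ratio of Vcam1 to Icam2 counts within a library was 0.673 to 0.898 against 0.310 to 0.483 in the mice labelled knockout and the control, and that of Vcam1 to Cdh5 0.0671 to 0.0911 against 0.0245 to 0.0525, both ratios picked after the values were seen. Of 5 other genes that activated endothelium induces, Icam1, Selp and Ccl2 were tested and 0 passed (edgeR, 0 at an unadjusted p below 0.05, 0 in DESeq2 and limma-voom). Icam1 was at 8.87 ± 1.67 against 8.93 ± 0.916 CPM, the P-selectin gene Selp at 1.98 ± 0.462 against 1.64 ± 0.770 CPM and the chemokine gene Ccl2 at 1.87 ± 1.62 against 0.784 ± 0.827 CPM. The E-selectin gene Sele and the chemokine gene Cxcl1 were too low to be tested.

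**Figure D2:**
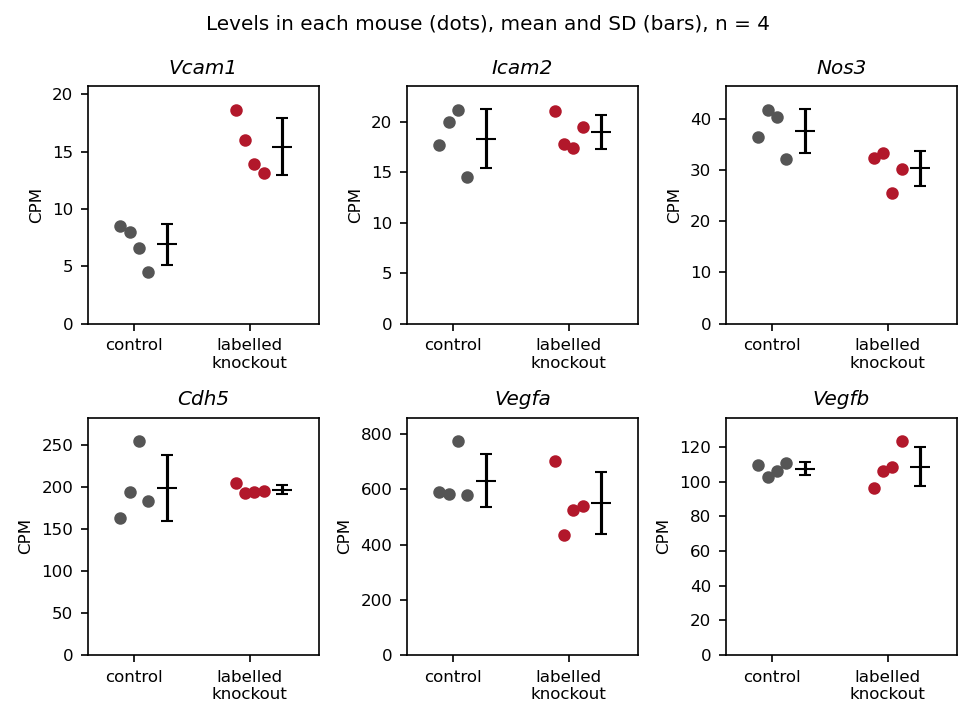
CPM (y axes, each from 0) of 6 genes in each mouse as dots, with the mean and SD of 4 mice beside them. Vcam1 is the 1 gene of these 6 in which all 4 mice labelled knockout, between 13.1 and 18.6 CPM, lie above all 4 control mice.

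Markers of other cells that can carry Vcam1 were examined beside it. All 10 macrophage markers had a log2 fold change above 0 (median 0.36), 2 of them had an unadjusted edgeR p below 0.05 and 0 passed (1 in DESeq2, 0 in limma-voom). Their summed level was 94.3 to 166 against 91.6 to 127 CPM in the mice labelled knockout and the control. Cd68 was at 9.18 ± 2.71 against 4.81 ± 1.56 CPM and Mpeg1 at 12.99 ± 3.19 against 8.36 ± 0.766 CPM. Of the 8 fibroblast and progenitor markers 5 lay above 0, with a summed level of 353 to 386 against 280.4 to 373 CPM, and Lum, at 14.7 ± 1.82 against 10.3 ± 0.916 CPM, and Dcn, at 157 ± 4.07 against 129.5 ± 16.1 CPM, did not overlap between the groups. Those 2 of the 8 also had an unadjusted p below 0.05, beside 8.1% without overlap and 15.2% at that p among all genes tested. In edgeR 0 of the 8 passed, and Cd68 and Lum passed in DESeq2. All 18 had counts in every library. The 8 lymphocyte markers were all too low to be tested, with a summed level of 2.10 to 6.56 against 1.59 to 2.40 CPM. The part of these cells in the rise of Vcam1 was not tested.

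The VEGF ligands were the 2 most abundant of the 36 genes per kilobase, Vegfa at 138 CPM and Vegfb at 67.3 CPM per kilobase over the 8 libraries. Vegfa (ENSMUSG00000023951, chromosome 17, 46016993 to 46032369, minus strand), the main growth factor for vessels, stood at 591, 582, 775 and 578 CPM in control mice 1 to 4 and at 703, 436, 525 and 538 CPM in labelled knockout mice 1 to 4. Control 3 and labelled knockout 1 were the highest, and the 3 other mice labelled knockout lay below the 3 other control mice. The groups overlapped, since labelled knockout 1 lay above control 1, 2 and 4. The log2 fold change of Vegfa was -0.20 ± 0.15 with a 95% interval of -0.53 to 0.14 and an adjusted p of 0.574. Vegfb (ENSMUSG00000024962, chromosome 19, 6982473 to 6987651, minus strand), a ligand of FLT1, stood at 109.9, 103, 106 and 111 CPM in control mice 1 to 4 and at 96.2, 106, 108 and 123 CPM in labelled knockout mice 1 to 4. Its control values lay within a narrow band, labelled knockout 1 was lowest and labelled knockout 4 highest. Brown fat cells are a source of both ligands, and 9 of their 10 markers lay below equality, at a summed level of 21439 to 28056 against 26801 to 32952 CPM, whose part in the value of Vegfa was not tested. Of the 10 markers 3 had an unadjusted edgeR p below 0.05, all as lower, beside 15.2% of all genes tested (7.12% as lower). Without overlap 2 of the 10 lay lower, beside 4% of all genes tested. In edgeR 0 of the 10 passed, and in DESeq2 2 did. These were the lipid elongase gene Elovl3 at 679.6 ± 139 against 1311 ± 463 CPM and the lipid droplet gene Plin1 at 759 ± 84.6 against 1073 ± 124 CPM. In edgeR both also passed with the endothelial score as a covariate, and Elovl3 where low counts were not filtered. Vegfb had a log2 fold change of 0.02 ± 0.09 and the narrowest interval of the 36, -0.18 to 0.21.

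Other genes of VEGF and angiopoietin signalling were examined from a list of 21, all of which were tested. Of the 21, with p adjusted over all genes tested, 0 passed in edgeR or limma-voom and 2 in DESeq2. At an unadjusted p below 0.05 stood 6 of the 21 (2 higher, 4 lower), and the same 6 did not overlap between the groups, beside 15.2% and 8.1% of all genes tested (4% without overlap as lower). Apln, which encodes the peptide apelin that sprouting endothelial cells secrete, was at 3.22 ± 0.497 against 5.22 ± 0.643 CPM (log2 fold change -0.70 ± 0.18, adjusted p = 0.14). The VEGF co-receptors Nrp1 and Nrp2 were at 109 ± 5.25 against 132 ± 4.14 CPM and 81.2 ± 6.30 against 105 ± 12.9 CPM, with -0.27 ± 0.08 and -0.37 ± 0.10. Pgf, the placental growth factor that binds FLT1, was at 1.17 ± 0.236 against 0.580 ± 0.0575 CPM, with 1.00 ± 0.30. Angpt2, an angiopoietin that loosens vessels, was at 1.77 ± 0.185 against 2.67 ± 0.303 CPM, and Fgf2, a fibroblast growth factor that acts on endothelium, at 9.34 ± 2.29 against 6.55 ± 0.996 CPM. Angpt2 and Fgf2 were named after their values were seen. Apln and Nrp1 passed in DESeq2 and in no other alternative, and the other 4 passed in none. The oxygen-sensing factors Hif1a and Epas1, which drive Vegfa, were at 63.8 ± 1.78 against 71.4 ± 14.3 CPM and 582 ± 35.5 against 606 ± 36.4 CPM, with adjusted p of 0.583 and 0.803.

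Mice of the same group differed from each other in many of these genes at once. Summed over the 30 pan-endothelial, transcription factor and capillary genes, levels were 1825, 2193, 2692 and 1973 CPM in control mice 1 to 4 and 2375, 2265, 2155 and 2049 CPM in labelled knockout mice 1 to 4. Control 3 was the highest of the 8 mice in 16 of these 30 genes, and control 1 was the lowest in 17. The SD was larger in the control in 23 of the 36 genes. In control 3 31 of the 36 genes lay above their own mean over the 8 mice and in labelled knockout 1 27, against 7 in control 1 and 6 in control 4. Without control 3 the median log2 fold change of the 36 genes was 0.13, and without control 1 it was -0.01.

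**Figure D3:**
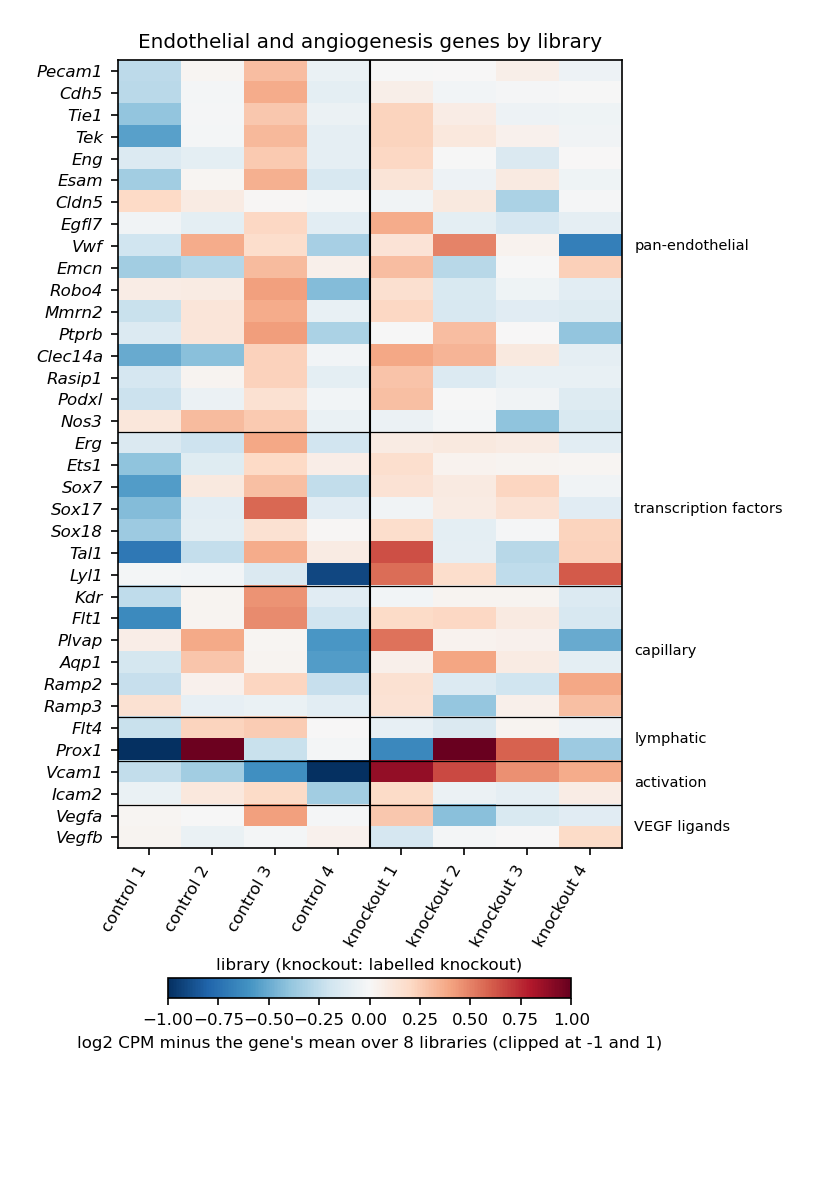
Log2 CPM of each of the 36 genes (rows, by group) in each mouse (columns), less the gene's mean over the 8 mice, with red above and blue below that mean and values beyond -1 or 1 drawn at that limit. Most rows are red in control 3, where 31 of 36 lie above their mean, and blue in control 1, and the Vcam1 row changes from blue to red at the line between the groups.

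Endothelial genes outside the 36 were examined from a further list. Of 25 further endothelial genes 24 were tested, and their median log2 fold change was 0.09. Of them 0 passed (edgeR, 1 at an unadjusted p below 0.05, beside 15.2% of all genes tested, 0 in DESeq2 and limma-voom). The 4 with the smallest p were Ackr1, a chemokine receptor of venules, with 0.88 ± 0.30, Tspan7 with 0.25 ± 0.12, Mcam with -0.34 ± 0.18 and Ece1, the endothelin-converting enzyme, with 0.20 ± 0.11. The summed level of the list was 1241 CPM in control 1, 1696 CPM in control 3 and 1447 to 1519 CPM in the mice labelled knockout. Of 10 mural cell markers, which coat the vessels, 0 passed (also in DESeq2 and limma-voom) and 1 had an unadjusted edgeR p below 0.05, Cspg4 at 43.8 ± 2.04 against 52.8 ± 2.47 CPM. Cspg4 was also the 1 of the 10 that lay lower without overlap. Among all genes tested 15.2% had such a p and 4% lay lower without overlap. Abcc9, the next by p, was at 89.00 ± 9.08 against 76.1 ± 17.01 CPM. Their summed level was 596 ± 45.1 against 574 ± 76.5 CPM.

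**Figure D4:**
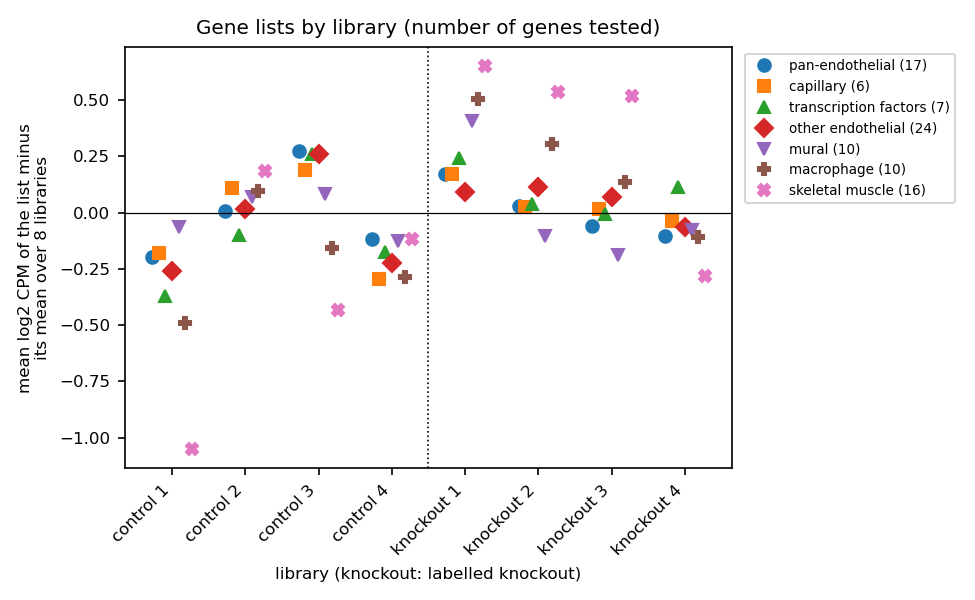
Mean log2 CPM of 7 gene lists in each mouse (x axis), less each list's mean over the 8 mice (y axis), with the number of genes tested in brackets. The endothelial lists are lowest in control 1 or control 4 and highest in control 3. The muscle list runs from control 1, the lowest, to labelled knockout 1, the highest.

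Blood and mast cell markers were examined because blood cells share Tal1 and Lyl1 with endothelium. Of 6 erythroid and platelet markers 5 were tested and 0 passed (edgeR, 1 at an unadjusted p below 0.05, 0 in DESeq2 and limma-voom), and their summed level was 365 to 1189.7 against 530.4 to 1269.6 CPM. Alas2, the erythroid haem enzyme, was at 24.2 ± 13.3 against 48.5 ± 17.2 CPM and the haemoglobin gene Hbb-bs at 378 ± 239 against 631 ± 208 CPM, whose near-identical copies can share reads. Of 6 mast cell markers 2 were tested and 0 passed (edgeR, 1 at an unadjusted p below 0.05, 0 in DESeq2 and limma-voom). In both lists that 1 stands beside 15.2% of all genes tested. Kit was at 7.84 ± 5.98 against 6.05 ± 2.25 CPM. Labelled knockout 4 held 16.1 CPM of Kit, and the other mice labelled knockout 2.01 to 7.90 CPM. Tpsb2 was at 1.10 ± 0.389 against 0.413 ± 0.340 CPM, with 1.37 ± 0.57 on the log2 scale (edgeR adjusted p = 0.295). Cpa3, Cma1 and Mcpt4 were too low to be tested and had lower means in the mice labelled knockout. They were at 0.182 ± 0.0919 against 0.239 ± 0.238 CPM, 0.451 ± 0.107 against 0.604 ± 0.430 CPM and 0.473 ± 0.532 against 0.555 ± 0.448 CPM. Fcer1a had 0 counts in all 8 libraries.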

How the data were processed

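The authors deposited a table of raw read counts, 1 row a gene and 1 column a mouse. The submitters' processing notes name HISAT2, featureCounts (Subread), SAMtools, Trimmomatic and FastQC, and the build GRCm38. Their versions, the strand setting and the annotation release were not given in the sources used here. Per the labels' protocols, libraries were stranded mRNA libraries. Columns were matched to mice by genotype and number. The labels call the samples separate mice, and replicates differed by more than counting noise (their chi-square was 10.4 to 52.95 times its degrees of freedom, for genes of 20 or more counts).

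From the counts, genes were filtered with filterByExpr (13756 left), scaled by TMM and tested for genotype by quasi-likelihood in edgeR 4.0.16 under R 4.3.3, with Benjamini-Hochberg adjustment over all genes and a threshold of 0.05. SE and 95% intervals come from that test's F. Alternatives were DESeq2 1.42.0, limma-voom (limma 3.58.1), 3 scalings, 2 filters, a muscle covariate, an endothelial covariate added later, the mouse number as a block, and each library left out in turn. Positions and exon lengths are from GENCODE M21 (99.8% of IDs found). On simulated counts for this comparison (13589 genes) the test found 97.7% of 4-fold, 67.01% of 2-fold and 40% of 1.5-fold changes, and 7.30% of its calls were false. The biological coefficient of variation was 16.4%.

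The members, lists and alternatives were chosen with earlier results of these data known, so no p over a list is given. Values in every mouse are given for 10 fixed genes, for those with an unadjusted p below 0.05 or no overlap, and for the highest and lowest fold change. Tek was added after its values were seen. Of other lists the 2 genes with the smallest p are named (4 for the 2 longest pathway lists). Icam1, Hif1a, Epas1, Ucp1 and the genes of the closing observations fall outside this rule.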

Additional observations from a re-analysis of the deposited data

Results flagged for a closer look

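Within the groups of 4 mice, 9 of 72 sets of values (36 genes in 2 groups) held a mouse whose gap to the next, divided by the group's range (Dixon's ratio), exceeded the 95% critical value for 4 samples. About 1 in 20 such sets is picked out by chance. Control 3 stood high in Eng (255 CPM against 194 to 200.2, ratio 0.903), in Erg (21.1 CPM against 13.98 to 14.6, ratio 0.913) and in Vegfa (775 CPM against 578 to 591, ratio 0.936). Labelled knockout 1 stood high in Egfl7 (103 CPM against 70.5 to 74.7, ratio 0.870), in Mmrn2 (39.7 CPM against 30.8 to 31.8, ratio 0.891), in Rasip1 (38.95 CPM against 29.04 to 30.4, ratio 0.867) and in Ets1 (77.2 CPM against 69.6 to 70.5, ratio 0.879). Labelled knockout 4 stood low in Erg (15.0 CPM against 17.1 to 17.3, ratio 0.907), and control 1 stood high in Ramp3 (3.89 CPM against 3.25 to 3.35, ratio 0.853).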

How the results depend on the processing

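Among all genes tested 53 passed in the reported fit. The count was 384 with DESeq2, 187 with no filter on low counts, 15 with the muscle score as a covariate, 107 with the endothelial score as a covariate (added after seeing the data) and 24 to 75 with 1 library left out (34, 28 and 32 on leaving out control 1, 2 or 4, and 24 and 26 on leaving out labelled knockout 1 or 3). Of the 36 genes, 1 passed in the reported fit (Vcam1), 0 with the muscle score as a covariate (edgeR, 2 at an unadjusted p below 0.05) and 0 to 1 with 1 library left out. No gene of the 36 other than Vcam1 passed under any alternative. With the mouse number as a replicate block 155 of all genes and 1 of the 36 passed, and so did the erythroid gene Alas2 (adjusted p = 0.0424). Mice with the same number did not deviate together in every pair (correlations 0.40 and 0.17 for numbers 2 and 4, 0.024 and 0.032 for 1 and 3), and not every mouse correlated best with its own number, so the block is not read as a pairing. Prox1, Tal1, Lyl1 and Ramp3 had the lowest mean CPM of the 36, and the part of depth in their values was not tested. Sign changes, none with a value past the threshold, touched 25 of the 36 genes, all with a log2 fold change of at most 0.18 in size in the reported fit, and their cause was not tested. The log2 fold changes were 0.0021 for Pecam1, 0.0053 for Cdh5, -0.030 for Vwf, -0.0024 for Rasip1 and 0.046 for Sox17 with limma-voom, 0.0046 for Sox17 with upper-quartile scaling and 0.023 for Pecam1, 0.021 for Cdh5 and 0.029 for Sox17 with total count scaling. They were 0.0016 for Pecam1, 0.0051 for Cdh5, -0.0013 for Vwf and 0.029 for Sox17 with the replicate block. With the endothelial score, which contains 3 of the 4 genes concerned, they were -0.016 for Egfl7, -0.034 for Vwf, -0.028 for Rasip1 and -0.011 for Plvap. Adjusted for the muscle score they were -0.071 for Tie1, -0.064 for Tek, -0.078 for Esam, -0.0078 for Egfl7, -0.42 for Vwf, -0.089 for Rasip1, -0.061 for Podxl, -0.0066 for Ets1, -0.049 for Sox7, -0.16 for Flt1, -0.24 for Plvap, -0.63 for Prox1, -0.14 for Selp and -0.075 for Abcc9. With 1 library left out the ranges were -0.095 to 0.099 for Pecam1, -0.099 to 0.13 for Cdh5, -0.020 to 0.20 for Tie1, -0.039 to 0.13 for Eng, -0.056 to 0.19 for Esam, -0.12 to 0.098 for Egfl7, -0.16 to 0.20 for Vwf, -0.23 to 0.037 for Robo4, -0.20 to 0.0073 for Mmrn2, -0.17 to 0.097 for Ptprb, -0.099 to 0.086 for Rasip1, -0.021 to 0.14 for Podxl, -0.0053 to 0.22 for Erg, -0.13 to 0.23 for Sox17, -0.17 to 0.083 for Kdr, -0.040 to 0.33 for Flt1, -0.14 to 0.20 for Plvap, -0.019 to 0.20 for Ramp2, -0.027 to 0.19 for Ramp3, -0.14 to 0.72 for Prox1, -0.051 to 0.12 for Icam2, -0.052 to 0.069 for Vegfb, -0.24 to 0.71 for Kit and -0.22 to 0.12 for Myl1.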

Other observations

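Genes that mark arteries and veins were on the list of further endothelial genes. The arterial connexins Gja4 and Gja5 were at 6.74 ± 1.26 against 6.95 ± 1.98 CPM and 6.34 ± 1.61 against 5.997 ± 2.42 CPM, the arterial ligand Efnb2 at 28.8 ± 4.35 against 29.8 ± 9.17 CPM and its venous receptor Ephb4 at 45.6 ± 6.27 against 43.5 ± 5.78 CPM. The Notch ligand Dll4, which arteries and sprouting tips carry, was at 15.8 ± 4.41 against 20.3 ± 8.39 CPM, and the venous factor Nr2f2 at 13.2 ± 1.73 against 12.1 ± 2.57 CPM. None of these 6 passed (edgeR adjusted p from 0.579 for Dll4 to 0.941 for Gja4). Ackr1, which marks venules, was at 3.04 ± 0.657 against 1.62 ± 0.590 CPM. It was the 1 of the 24 genes tested on that list whose groups did not overlap, beside 8.1% of all genes tested (4.1% as higher). Ackr1 did not pass (edgeR adjusted p = 0.215).

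Further capillary genes of the same list did not pass either. Gpihbp1, which carries lipoprotein lipase to the capillary wall, was at 117 ± 3.35 against 102 ± 17.9 CPM, and Cd300lg, a capillary surface protein, at 161 ± 8.03 against 151 ± 34.3 CPM. Rgcc was at 306 ± 19.6 against 288 ± 23.5 CPM. Their edgeR adjusted p were 0.465, 0.787 and 0.694.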
